A study of Mus musculus with 2 samples.

Results

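The Mir99, Mir100 and Mir125 genes are 6 mouse microRNA (miRNA) genes that lie, with let-7 genes between them, in 3 small clusters on chromosomes 9, 16 and 17. They were chosen by name from the deposited table of 1973 miRNA genes, through their Ensembl gene identifiers, together with Gm25927. That gene lies on the strand opposite Mirlet7e, the middle gene of the chromosome 17 cluster, so the set holds 7 genes in all. The study sequenced small RNA of the developing face and jaws (embryonic facial prominence) from B6NCrl mouse embryos at embryonic day 15.5. There was 1 group with 2 biological replicates, replicate 1 pooled from 78 embryos and replicate 2 from 62, males and females mixed, with no treatment or genetic change named in the labels. The comparison this allows is one library against the other.

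MiRNAs are short RNAs that guide silencing proteins to messenger RNAs, mostly by pairing through the seed, which is bases 2 to 8 of the mature miRNA. MiR-99 and miR-100 share a seed, are relatives of the miR-10 family and are known for repressing components of the mTOR growth pathway. MiR-125 is the vertebrate counterpart of the worm timing gene lin-4, and the let-7 miRNA beside it is the counterpart of the second worm timing gene. The arrangement of a miR-99 or miR-100 gene, a let-7 gene and a miR-125 gene on 1 strand is old in animal evolution, and the 3 clusters are copies of it.

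The mature miRNAs from the 5′ arms (5p) show which members can be told apart by sequencing, and are given 5′ to 3′ from RefSeq (GRCm38.p6, the same build as mm10) with the seed in capitals. The RefSeq table matched 6 of the 7 genes by symbol. It was searched also for Mirlet7e, whose strand holds the reads of Gm25927.
miR-99a-5p: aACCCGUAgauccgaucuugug
miR-100-5p: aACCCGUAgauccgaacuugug
miR-99b-5p: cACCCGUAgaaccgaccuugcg
miR-125a-5p: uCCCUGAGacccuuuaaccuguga
miR-125b-5p: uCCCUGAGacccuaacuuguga
let-7e-5p: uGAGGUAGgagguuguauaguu

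The first 3 carry the seed ACCCGUA and both miR-125 forms carry the seed CCCUGAG. MiR-99a-5p and miR-100-5p are each 22 bases long and differ by 1 base, the substitution U16A counted from the 5′ end of miR-99a-5p. MiR-99b-5p differs from miR-99a-5p at 4 positions (A1C, U11A, U16C and U21C). MiR-125a-5p has 24 bases and shares its first 13 with miR-125b-5p, which has 22. The same miR-125b-5p comes from both Mir125b-1 and Mir125b-2, so a read of exactly that sequence fits both genes.

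The pair that differ by 1 base is repeated here with the differing base in capitals.
miR-99a-5p: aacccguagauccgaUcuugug
miR-100-5p: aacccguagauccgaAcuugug

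The 3′ arms (3p) of the Mir125b genes can be told apart and differ at 5 of 22 positions, in capitals below.
miR-125b-1-3p: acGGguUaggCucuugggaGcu
miR-125b-2-3p: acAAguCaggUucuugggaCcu

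The counts are per gene and do not separate the arms. Reads that map to several places were set aside before counting, and they equalled 60.1% of the gene reads in replicate 1 and 65.3% in replicate 2. The Mir125b-1 and Mir125b-2 hairpins share a run of 24 bases that holds all of miR-125b-5p with 2 bases before it and 0 after it. Their counts are therefore uncertain and can leave out most reads of the shared arm. None of the other 5 members shares 20 bases with another annotated hairpin. How many mismatches the alignment allowed, which bears on telling miR-99a-5p from miR-100-5p, is not given in the sources used here.

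The libraries held 2978463 gene reads in replicate 1 and 6408008 in replicate 2. All 7 genes had at least 10 reads in both, as did 333 of the 1973 genes. Levels are reads per 1000000 gene reads (CPM) after TMM scaling, which corrects library sizes for composition, and 3 reads, the limit that a count of 0 allows, correspond to 1.00 CPM for replicate 1 and to 0.470 CPM for replicate 2. A read spans a whole mature miRNA, so genes were compared per read, and the order per base of hairpin is given beside it. Marker miRNAs fixed for 9 tissue types had 17 of 21 genes with at least 10 reads in both libraries, among them Mir203 of epithelium, Mir140 of cartilage, Mir214 of mesenchyme and Mir126a of endothelium. Of the rest, Mir9-1 and Mir142 are not among the counted genes, and Mir124a-1 of neurons and Mir1a-1 of muscle, which have near-identical copies, were under 10 reads. The summed levels of these lists differed between the libraries by log2 ratios from −0.41 (skeletal muscle) to 0.24 (endothelium), and their part in the differences below was not tested. In a whole tissue, more cells that make a miRNA and more of it in each cell cannot be told apart.

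The 7 genes together reached 97798 CPM in replicate 1 against 116214 CPM in replicate 2, and averaged 107006 ± 13023 CPM (SD, n = 2). This was 9.83% of gene reads in replicate 1 (95% Clopper-Pearson interval 9.79 to 9.86) and 11.57% in replicate 2 (11.54 to 11.59). These intervals cover counting error within each library only. They treat reads as independent, which reads without molecular identifiers need not be, so they can be too narrow. The 3 genes of the Mir99 and Mir100 seed supplied 88.0% of the members' reads in replicate 1 and 89.9% in replicate 2. The 3 Mir125 genes supplied 5.71% and 4.92%, without reads mapped to several places, and Gm25927 the remaining 6.30% and 5.18%.

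Mir99a was the highest member and the gene of rank 3 of 1973 in each library. It lies on chromosome 16 from 77598936 to 77599000 (mm10, plus strand), within an intron of Mir99ahg, a noncoding host gene. Its level was 55719 CPM in replicate 1, from 166762 reads, and 63844 CPM in replicate 2, from 407139 reads. This gene alone held 57.0% of the members' reads in replicate 1 and 54.9% in replicate 2. Mir100, on chromosome 9 from 41531425 to 41531504 in an intron of the noncoding genes 3110039I08Rik and Gm49317, stood at 16691 CPM in replicate 1 and 24662 CPM in replicate 2. An exon of Gm48742 lies on the strand opposite Mir100. The reads of Mir100 numbered 49955 and 157269, and its rank was 16 in replicate 1 and 11 in replicate 2. Mir99b, on chromosome 17 from 17830188 to 17830257 in an intron of the protein-coding gene Spaca6, had 13639 CPM (40820 reads) and 15974 CPM (101866 reads). All 3 genes of this seed were higher in replicate 2 beyond counting error. The same held for 27.6% of the 333 genes with at least 10 reads in both libraries. The order Mir99a, Mir100, Mir99b was the same in both libraries.

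The Mir125 genes were lower than the Mir99-type gene of their own cluster in both libraries. Mir125a, on chromosome 17 from 17830812 to 17830879, overlaps an annotated exon of Spaca6 and stood at 4005 CPM in replicate 1 and 3993 CPM in replicate 2 (11987 and 25466 reads). Its rank was 55 in each. Mir125b-1, on chromosome 9 from 41581926 to 41582002, overlaps an exon of Gm28119 and had 1049 CPM and 1185 CPM (3140 and 7557 reads). Mir125b-2, on chromosome 16 from 77646273 to 77646343 in an intron of Mir99ahg and reaching into an exon of C130023A14Rik, had 533 CPM and 534 CPM (1596 and 3405 reads). The levels of the Mir125b genes hold for reads that mapped to 1 place, and their sum was 1651 ± 96.6 CPM (SD, n = 2). Mir125a is the member of this seed whose hairpin shares no 20 bases with another.

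Gm25927 had reads on the opposite strand only. It is annotated on the minus strand of chromosome 17 from 17830343 to 17830459, and the Mirlet7e hairpin, from 17830352 to 17830444 on the plus strand, lies entirely within it. All 18439 reads of replicate 1 and all 38407 of replicate 2 lay on the plus strand, so 100% were on the opposite strand. Its 0 own-strand reads allow a share of up to 0.0163% in replicate 1 and 0.00781% in replicate 2, taking 3 reads as the limit. None of the other 6 members had a read on the opposite strand in either library. The upper limit on the same basis ran from 0.000737% of the gene's reads for Mir99a in replicate 2 to 0.188% for Mir125b-2 in replicate 1. Among the 333 genes with at least 10 reads in both libraries, 7 had every read on the opposite strand in both and 293 had none there. Mirlet7e is not itself among the counted genes, so the column of opposite-strand reads of Gm25927 is where reads of its transcript would be counted. The level there was 6161 CPM in replicate 1 against 6023 CPM in replicate 2, averaging 6092 ± 97.8 CPM (SD, n = 2).

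Means in falling order were 59782 ± 5745 CPM for Mir99a, 20676 ± 5636 for Mir100, 14806 ± 1651 for Mir99b, 6092 ± 97.8 for Gm25927, 3999 ± 8.33 for Mir125a, 1117 ± 96.1 for Mir125b-1 and 534 ± 0.482 for Mir125b-2 (SD, n = 2). No neighbours in this order overlapped over the libraries, and the order was the same in both. The SDs of Mir125a and Mir125b-2 come from near-equal values in the libraries. They are below counting error and so do not measure the precision of these levels. The closest neighbours were Mir100 and Mir99b. The lowest value of Mir100 was 16691 CPM against a highest of 15974 CPM for Mir99b, and their means differed by little more than the SD of Mir100. Per base of hairpin, Mir125a (58.8 CPM per base) came before Gm25927 (52.1 CPM per base), whose annotated length is 117 bases against 68, and the other places stayed as they were. The plot of levels by gene and library shows the span of the counts, 112-fold between the means of Mir99a and Mir125b-2. The Mir125b counts leave out reads mapped to several places, so this span is uncertain and can be too wide.

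**Figure D1:**
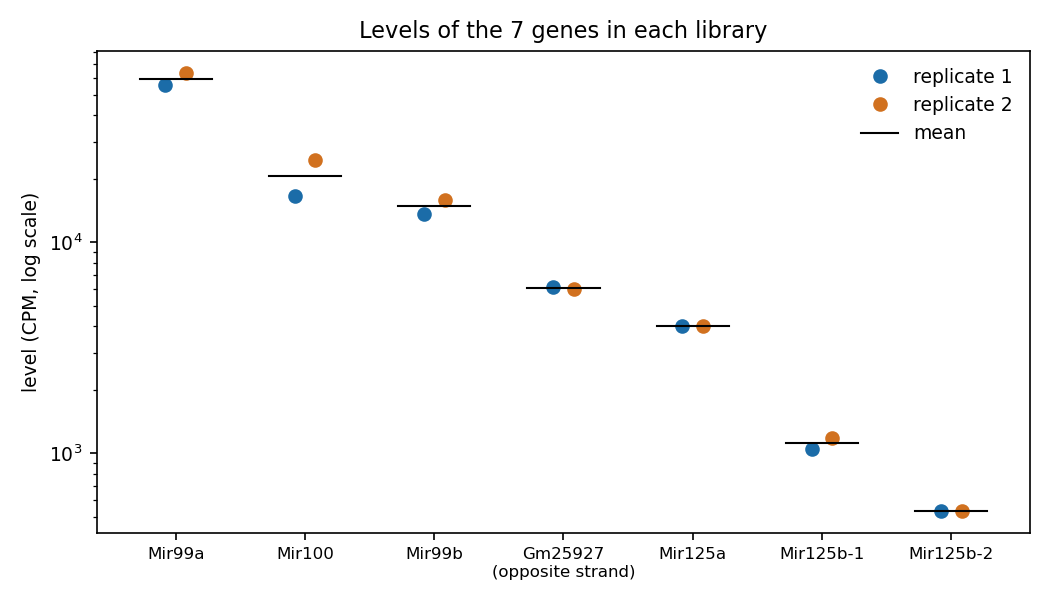
Level of each of the 7 genes in CPM (log scale) in replicate 1 and replicate 2, with the mean of both as a line. Mir99a stands highest at 55719 and 63844 CPM and Mir125b-2 lowest at 533 and 534 CPM, and Mir100 has the widest gap between its points on this scale. The levels of the Mir125b genes leave out reads mapped to several places.

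The 3 clusters share their gene order but not their spacing. On chromosome 17, Mir99b, Mirlet7e and Mir125a fall within 692 bases, with 94 and 367 bases between neighbours. On chromosome 16, Mir99a and Mirlet7c-1 are 656 bases apart, and Mir125b-2 follows after a further 46522 bases. On chromosome 9, 5211 bases separate Mir100 from Mirlet7a-2 and 45114 bases separate Mirlet7a-2 from Mir125b-1. The let-7 genes of the wide clusters had few reads mapped to 1 place, with 198 ± 4.27 CPM for Mirlet7c-1 and 274 ± 8.35 CPM for Mirlet7a-2 (SD, n = 2). Each of these 2 hairpins shares 20 bases with 2 other let-7 hairpins, whereas the Mirlet7e hairpin shares none, so the 3 let-7 values are not on an equal footing.

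**Figure D2:**
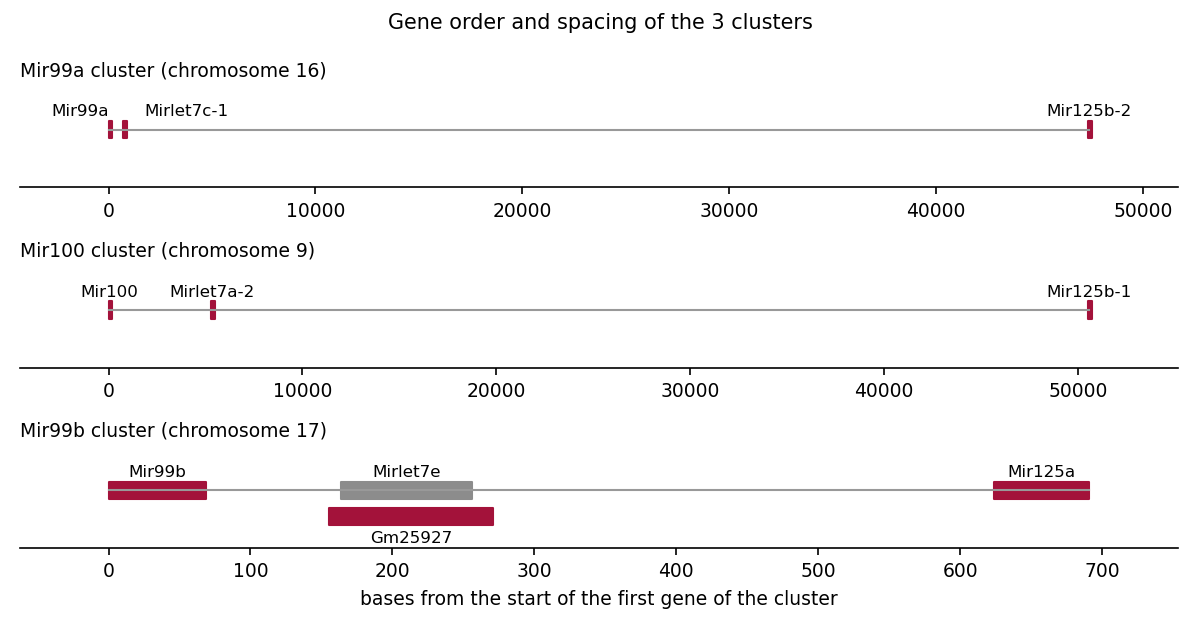
Position of the genes of each cluster in bases from the start of its first gene, plus strand above and minus strand below, with counted genes in red and the uncounted Mirlet7e in grey. On chromosomes 9 and 16 the hairpins are drawn wider than scale to be visible. The chromosome 17 cluster spans 692 bases and the others 50578 and 47408.

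The first gene held most reads of every cluster, least so on chromosome 17. Mir99a had 98.7% of the reads of its cluster in replicate 1 (95% Clopper-Pearson interval 98.7 to 98.8) and 98.9% in replicate 2 (98.8 to 98.9). Mir100 had 92.7% (92.5 to 92.9) and 94.4% (94.3 to 94.5). Mir99b had 57.3% (56.9 to 57.7) and 61.5% (61.2 to 61.7), with 25.9% and 23.2% for Gm25927 and 16.8% and 15.4% for Mir125a. The let-7 and Mir125b genes of the other clusters lose reads to the class mapped to several places, so these shares are not comparable between clusters beyond reads mapped to 1 place. Only the chromosome 17 cluster has 3 genes without a near copy.

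**Figure D3:**
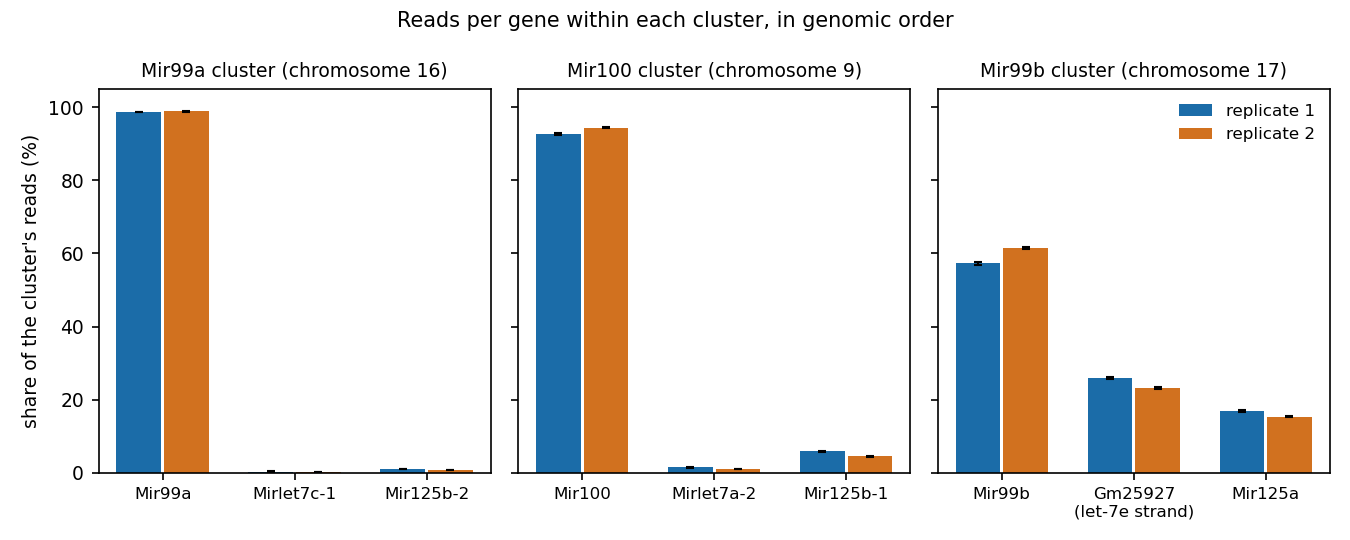
Share of each cluster's reads (percent) held by its genes in genomic order, with bars for replicate 1 and replicate 2 and 95% Clopper-Pearson intervals as error bars. The first gene holds 98.7% and 98.9% on chromosome 16, 92.7% and 94.4% on chromosome 9, and 57.3% and 61.5% on chromosome 17.

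Within a library, the ratio of the Mir99-type gene to the Mir125-type gene of the same cluster does not depend on scaling between libraries. On chromosome 17, Mir99b had 3.41 reads per Mir125a read in replicate 1 (95% counting interval 3.34 to 3.48) and 4.0 in replicate 2 (3.95 to 4.06). On chromosome 9, Mir100 had 15.9 reads per Mir125b-1 read (15.3 to 16.5) and 20.8 (20.3 to 21.3). On chromosome 16, Mir99a had 104 reads per Mir125b-2 read (99.5 to 109.8) and 120 (116 to 124). As log2 ratios these were 1.88 ± 0.16, 4.19 ± 0.27 and 6.80 ± 0.14 (mean ± SD, n = 2), and the gaps between clusters exceeded the spread between the libraries. The ratios for chromosomes 9 and 16 leave out reads of miR-125b-5p mapped to several places, which can raise them. How much of the gaps this makes up was not tested. All 3 ratios were higher in replicate 2, and the value for chromosome 17 is the one whose genes both share no 20 bases with another hairpin.

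Between the libraries, Mir100 differed most among the 7 genes. Its log2 ratio of CPM, replicate 2 over replicate 1, was 0.56 (95% counting interval 0.55 to 0.58), a fold of 1.48. Mir99b followed with 0.23 (0.21 to 0.24), Mir99a with 0.20 (0.19 to 0.20) and Mir125b-1 with 0.18 (0.12 to 0.24). Mir125a (0.00, −0.04 to 0.03), Mir125b-2 (0.00, −0.08 to 0.09) and Gm25927 (−0.03, −0.06 to −0.01) had ratios near 0. The signs of the Mir125a and Mir125b-2 ratios depended on the scaling between libraries, and those of the other 5 were the same in every scaling that gave a ratio.

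None of the 7 genes was past 1.5-fold in either direction, against 11.4% of the 333 genes with at least 10 reads in both libraries, and 8.11% of these were past it toward replicate 2. With size factors from DESeq2 Mir100 alone was past 1.5-fold, and it was again the 1 member called at the lower fold threshold tried. The counting interval left out 0 for 5 of the 7 genes, against 55.6% of all genes compared. For 4 members (Mir99a, Mir100, Mir99b and Mir125b-1) it lay toward replicate 2, against 27.6% of all genes, and for Gm25927 toward replicate 1. These background shares are not matched for depth. The members had 1596 reads or more in each library, whereas the 333 genes needed only 10. More reads narrow the interval, and log2 ratios spread less among genes of at least 1000 CPM (SD 0.27) than over all 333 (0.45). The median log2 ratio was 0.18 over the 7 genes and −0.01 over the 333. With 1 library on each side there are no residual degrees of freedom, so no p is given, and the intervals compare these libraries and not populations of embryos.

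**Figure D4:**
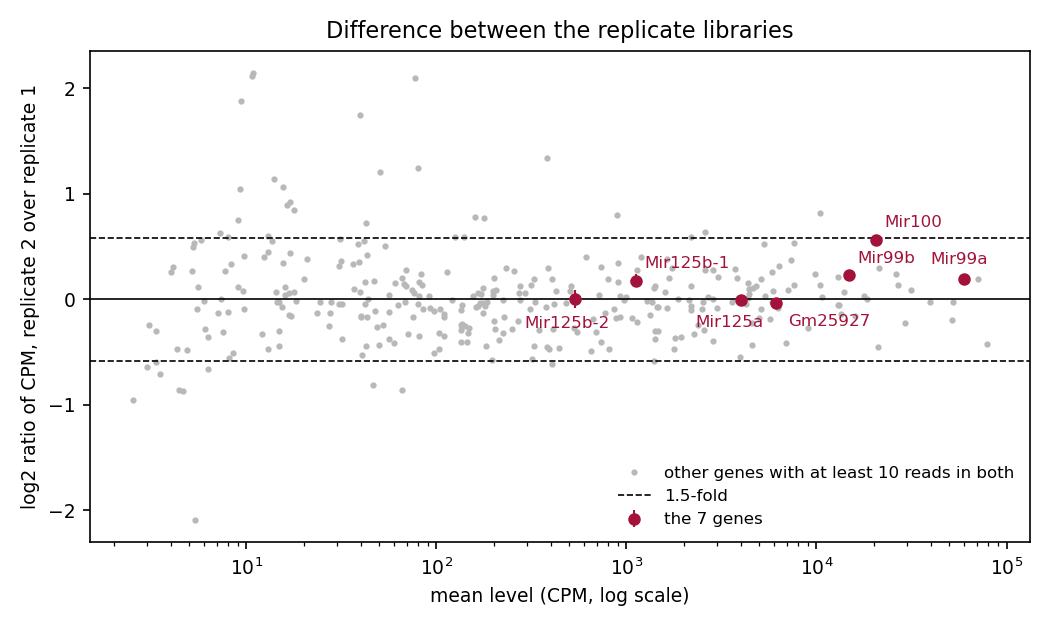
Log2 ratio of CPM, replicate 2 over replicate 1, against mean CPM (log scale) for the 7 genes in red with 95% counting intervals, many smaller than their points, and for the other genes with at least 10 reads in both libraries in grey. Dashed lines mark 1.5-fold. Mir100, at 0.56, lies just inside the upper line and the other 6 genes lie between −0.03 and 0.23.

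The neighbours of Mir100 and its nearest relative in sequence had smaller ratios. Mir125b-1, the miR-125 gene of the same cluster, had a log2 ratio of 0.18, and Mirlet7a-2 between them had 0.06 (−0.06 to 0.18). The counts of both neighbours leave out reads mapped to several places. Their ratios may therefore not hold for the mature miRNAs that they share with other genes. Mir99a held 3.34 reads per Mir100 read in replicate 1 (3.31 to 3.37) and 2.59 in replicate 2 (2.57 to 2.60), although the mature miRNAs differ by a single base. By contrast Mir99a held 4.09 reads per Mir99b read in replicate 1 (4.04 to 4.13) and 3.997 in replicate 2 (3.97 to 4.02). Of the 333 genes compared, 28 (8.41%) had a higher log2 ratio than Mir100, and the SD of the ratio over all 333 was 0.45. Over the 102 genes with a mean of at least 1000 CPM, a limit chosen after the values were seen, log2 ratios had an SD of 0.27 and a median absolute value of 0.18. Of these genes 3 had a higher ratio than Mir100, namely Mir449a (0.81), Mir96 (0.63) and Mir375 (0.59), which were picked out after their values were seen. The summed log2 ratio of the 7 genes was 0.25 (0.24 to 0.26), and without Mir100 it was 0.17.

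Other counted genes carry the same or a related seed. The reference table lists 3 genes with the seed ACCCGUA, all of them members. It lists 6 genes with the seed CCCUGAG, of which Mir351 on the X chromosome is the abundant one outside the set, and Mir6367 and Mir6394 had 0 reads in both libraries. The 5p sequences of Mir351 and of the Mir10 genes, whose seed ACCCUGU resembles that of Mir100, show how far the likeness goes, with the seed in capitals.
miR-351-5p: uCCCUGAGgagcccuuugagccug
miR-10a-5p: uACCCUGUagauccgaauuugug
miR-10b-5p: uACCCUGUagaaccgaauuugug

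MiR-351-5p equals miR-125a-5p over the first 8 bases, which include the whole seed. Compared position by position without gaps, it differs at 14 of the 24, and an alignment with gaps was not made. MiR-10a-5p shares a run of 11 bases with miR-100-5p (guagauccgaa), and miR-10b-5p shares a run of 10 with miR-99b-5p (guagaaccga).

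Mir351 stood at 5691 CPM in replicate 1 and 7065 CPM in replicate 2, above Mir125a in both. It held 50.5% of the reads of this seed in replicate 1 and 55.3% in replicate 2, where Mir125a held 35.5% and 31.3%. These shares leave out reads of miR-125b-5p that mapped to several places. Its log2 ratio was 0.31 (0.29 to 0.34), against 0.00 for Mir125a. By seed, the 3 genes with ACCCGUA summed to 95264 ± 13032 CPM and the 6 with CCCUGAG to 12028 ± 1060 CPM (SD, n = 2).

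Mir10b, in introns of Hoxd3 and Hoxd4, reached 5923 ± 226 CPM and Mir10a, outside other genes on its strand, 380 ± 233 CPM (SD, n = 2). The Mir10 genes together therefore had 6303 ± 459 CPM. Mir10a was at 215 CPM in replicate 1 against 545 CPM in replicate 2, a log2 ratio of 1.34 (1.22 to 1.46), and Mir10b had a ratio of 0.08 (0.05 to 0.10). The 10 counted let-7 genes summed to 153364 ± 6786 CPM. That sum leaves out reads mapped to several places and the genes Mirlet7e and Mirlet7f-1, which are not counted. None of the 10 was past 1.5-fold, against 11.4% of the 333 genes, and their median log2 ratio was 0.07. The counting interval lay toward replicate 2 for 5, toward replicate 1 for 3 and included 0 for 2. Over the 333 genes, which are not matched for depth, these counts were 92, 93 and 148. Placed beside them, Gm25927 at 6092 CPM lay between Mirlet7b (5667 ± 507 CPM) and Mir98 (7087 ± 293 CPM), and its values overlapped with those of Mirlet7b.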

How the data were processed

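MicroRNA sequencing of total RNA was carried out on 2 pools of mouse embryonic facial prominence. For each library the authors deposited unnormalized counts of reads in miRNA genes on mm10 with GENCODE M4, per the deposited file lists, on either strand, the strand of the gene and the opposite strand. The sources used here do not name the aligner or the counter. Lines that name no gene (unmapped, mapped to several places, outside genes) held 49.0% and 54.5% of the reads and stayed out of totals. Symbols and positions came from GENCODE M21 (same build), with 1894 of 1973 identifiers matched, and mature sequences from RefSeq.

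Either-strand counts were scaled with TMM factors over all genes in edgeR 4.0.16 (R 4.3.3) to CPM. Log2 ratios carry exact 95% counting intervals, and genes with at least 10 reads in both libraries were compared. Members and lists were chosen with earlier results of these data known. Named genes were the members, the let-7 genes of their clusters, genes of the same seed, Mir10a and Mir10b, genes sharing 20 bases, and each member's neighbours in level. Alternatives were total counts, size factors from DESeq2 1.42.0, Mir203 left out, own-strand reads, totals with reads mapped to several places, other filters and thresholds, hairpin length, summed Mir125b copies and each replicate left out. Python 3.11.15, pandas 2.3.3, scipy 1.17.1 and matplotlib 3.10.9 were used. The labels call the samples biological replicates.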

Additional observations from a re-analysis of the deposited data

How the results depend on the processing

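The summed level of the 7 genes (107006 CPM) was 97798 to 116214 CPM with either replicate left out, and 65693 CPM with reads mapped to several places in the totals, which enlarges the denominator. The log2 ratio of the sum (0.25) was 0.23 with total counts, 0.27 with DESeq2 size factors, 0.27 with own-strand reads, 0.20 with totals that hold reads mapped to several places and, in alternatives chosen after the values were seen, 0.27 without Gm25927 and 0.17 without Mir100. The count of members past 1.5-fold (0) became 1, Mir100, with DESeq2 size factors and at the lower fold threshold. The count outside counting error (5) was between 4 and 6 in every alternative run. The ratios of Mir99-type to Mir125-type genes moved by less than their SD per hairpin base and on own-strand reads. Over single replicates they ranged from 1.77 to 2.00, 3.99 to 4.38 and 6.71 to 6.90 (log2). None of these settings adds back reads mapped to several places. Of 51 single-gene levels recomputed over both replicates, 20 moved by more than the SD over replicates, 7 of them with totals that hold reads mapped to several places. This tally depends on each gene's SD as well as on the setting. The SDs of Mir125b-2 (0.482 CPM) and Mir125a (8.33 CPM) are below counting error, so small shifts exceed them. With Mir203 left out, only Mir125a, Mir125b-2 and Gm25927 were counted as moved. Gm25927 had 0 own-strand reads, so the own-strand setting gives no level for it, and its 0 is included in the 51 and in the 20. No paired analysis was possible because there is 1 group. Counting error was largest for the Mir125b genes, which had the fewest reads.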

Other observations

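The genes nearest to each member in mean level were of several kinds. Mir99a stood between Mirlet7i (70485 ± 6667 CPM) and Mirlet7g (52439 ± 566 CPM), and its values overlapped with neither. Mir100 stood below Mir205 (20988 ± 4603 CPM), an epithelial miRNA, and above Mir130a (18457 ± 61.4 CPM). Mir205 was higher in replicate 1 (log2 ratio −0.45) and Mir100 in replicate 2, so their order was opposite in the libraries. Mir130a overlapped with Mir100 too, and its 18414 CPM in replicate 1 was above the 16691 CPM of Mir100 there. Mir99b lay between Mir214 (15972 ± 1213 CPM) and Mirlet7d (13906 ± 481 CPM), and its values overlapped with both. Gm25927 lay between Mir93 (6258 ± 257 CPM) and Mir10b (5923 ± 226 CPM), also with overlap. Mir125a lay between Mir30d (4234 ± 92.5 CPM) and Mir27b (3971 ± 1055 CPM) and overlapped with Mir27b only. Mir125b-1 lay between Mir107 and Mir676, and Mir125b-2 between Mir300 and Mir540, with overlap in all 4 pairs (all SD, n = 2). With 2 libraries, likeness of pattern between genes cannot be measured.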
